A study of Homo sapiens with 16 samples.

Results

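The interleukin 1 system was followed here through 5 of the 23228 genes counted: the agonists IL1A and IL1B, the receptor antagonist IL1RN, the signalling receptor IL1R1 and its co-receptor IL1RAP. They were found by their symbols, and all 5 had a row in every library. RNA was sequenced from MDA-MB-231, an established oestrogen receptor-negative line of human breast cancer, kept in DMEM with 10% FBS and collected from sub-confluent dishes. There were 4 treatments: DMSO as vehicle, methyl methanesulfonate (MMS, which methylates DNA), sorafenib at 1 µM (an inhibitor of RAF and receptor tyrosine kinases), and a pre-incubation of 12 h in sorafenib before MMS, called the combination below. RNA was taken at 8 h and 24 h, timed from the addition of MMS in the combination, so those cells had seen sorafenib for 12 h longer than cells given sorafenib alone. For MMS, the series text gives 40 µg/mL and the sample labels give 40 µM. Each of the 8 groups held 2 libraries, described in the series text as independent experiments.

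Interleukin 1 alpha and beta are cytokines that start inflammation. Both bind IL1R1, which then recruits IL1RAP, and the pair signals through MYD88, IRAK kinases and TRAF6 to NF-kB and MAP kinases. The antagonist occupies IL1R1 without recruiting IL1RAP. Interleukin 1 beta is made as an inactive precursor that caspase-1 cuts, whereas the alpha precursor is already active and is cut by calpain. In tumours the 2 cytokines are known for drawing in neutrophils and for inducing chemokines, colony-stimulating factors and matrix proteases.

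The agonist promoters are shown because IL1A and IL1B had the largest changes of the 5 members. RefSeq places IL1A, IL1B, IL1RN and IL1R1 on chromosome 2 and IL1RAP on chromosome 3 of GRCh38.p14, a later build than the hg19 to which the authors aligned. All 5 genes matched, with 11 annotated starts. The 250 bases before each start were searched on both strands for 6 motifs, and capitals below mark the matches.
IL1A, chr2:112784494-112784743, minus strand: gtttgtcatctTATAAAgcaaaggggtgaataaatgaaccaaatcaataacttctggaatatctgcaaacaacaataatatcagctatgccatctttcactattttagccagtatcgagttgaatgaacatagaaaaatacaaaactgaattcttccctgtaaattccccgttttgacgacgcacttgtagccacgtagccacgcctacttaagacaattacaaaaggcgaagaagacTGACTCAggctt
IL1B, chr2:112836780-112837029, minus strand: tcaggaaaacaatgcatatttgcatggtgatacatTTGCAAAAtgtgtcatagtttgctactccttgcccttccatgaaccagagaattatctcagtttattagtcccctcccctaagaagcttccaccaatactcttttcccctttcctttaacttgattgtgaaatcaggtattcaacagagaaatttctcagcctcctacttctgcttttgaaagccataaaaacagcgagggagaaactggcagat

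The IL1A window held an AP-1 match (TGANTCA) at -12 to -6 from the start and the letters TATAAA at -239 to -234. A second IL1A start overlaps this one, and its window held AP-1 matches at -105 to -99 and at -55 to -49, of which the first is the site shown above. The IL1B window held a C/EBP match (TTGCNNAA) at -215 to -208. Of the windows of the other members, 1 of IL1RN held an AP-1 match and another held TATAAA on both strands, at overlapping positions. In 1 window of IL1R1 TATAAA was found on the opposite strand only, and the window of IL1RAP held none of the 6 motifs. Over all 35116 RefSeq windows of this length, 6.57% held the AP-1 motif, 9.05% the C/EBP motif and 10.7% TATAAA. The NF-kB motif (5.21% of windows), the CRE motif TGACGTCA (1.65%) and the C/EBP-ATF composite motif TGATGNAAT (0.888%) were in no window of the members. These matches describe letters, not bound sites.

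Gene counts per library came to between 16774156 and 26448212, with a median of 20348720. Levels are counts per 1000000 gene counts of the library (CPM), given in the order replicate 1, replicate 2. Changes are log2 differences ± SE between groups of n = 2, and "passed" means an adjusted p under 0.05 in edgeR's quasi-likelihood test over 13948 genes. Markers of mesenchymal-like breast cancer cells were high, with a median over libraries of 1980 CPM for VIM and 829 CPM for CD44. The oestrogen receptor gene ESR1 did not exceed 0.224 CPM and the pan-leukocyte gene PTPRC did not exceed 1.36 CPM. In every library 4 of 7 leukocyte and 2 of 7 luminal markers stayed under 1 CPM. Other markers were detected, and of the leukocyte ones CD14 reached 14 CPM and CSF1R 4.49 CPM. The luminal genes KRT19, EPCAM and GATA3 had medians of 146, 12.7 and 7.35 CPM.

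Both agonists were lower with sorafenib, alone and before MMS, at both times. IL1A, the alarmin of the pair, stood at 18.9 and 31.9 CPM in DMSO at 8 h and at 4.78 and 8.63 CPM in sorafenib. By 24 h the levels were 36.2 and 46.8 CPM in DMSO and 7 and 7.47 CPM in sorafenib. Every sorafenib library was below every DMSO library of its time. The log2 change was -1.91 ± 0.27 at 8 h (adjusted p = 0.012) and -2.53 ± 0.27 at 24 h (adjusted p = 0.00112), folds of 3.77 and 5.76. The summed level of 7 leukocyte markers overlapped between these groups, at 6.38 to 11.4 CPM in DMSO and 6.82 to 7.18 CPM in sorafenib at 8 h and at 9.50 to 19.3 and 8.02 to 12.9 CPM at 24 h. Bulk libraries cannot tell fewer cells making a transcript from less of it per cell.

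IL1B, the secreted cytokine that caspase-1 matures, fell by a larger fold. It stood at 66.7 and 67.8 CPM in DMSO at 8 h and at 9.87 and 9.99 CPM in sorafenib. The 24 h levels were 156 and 118 CPM in DMSO and 19.1 and 16.1 CPM in sorafenib. The groups were far apart at both times, by a log2 change of -2.74 ± 0.28 at 8 h (adjusted p = 0.00181) and of -2.97 ± 0.27 at 24 h (adjusted p = 0.000452). Few genes passed under sorafenib in this fit: 0.416% of all genes tested at 8 h and 0.796% at 24 h (lower: 0.287% and 0.545%). Of the 4 members 2 passed at each time, both lower. At 8 h IL1A did not pass without sorafenib replicate 1 (adjusted p = 0.109) or DMSO replicate 2 (adjusted p = 0.0973), and IL1B did not pass without sorafenib replicate 1 (adjusted p = 0.0808). In a fit of only the compared libraries, IL1A at 8 h also did not pass (adjusted p = 0.31). These fits had no replicate block. With the start of the sample title as such a block, 4.98% of all genes passed at 8 h and 7.1% at 24 h. Both agonists passed there at both times, with an adjusted p at 8 h of 2.82e-07 for IL1A and 8.07e-09 for IL1B.

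**Figure D1:**
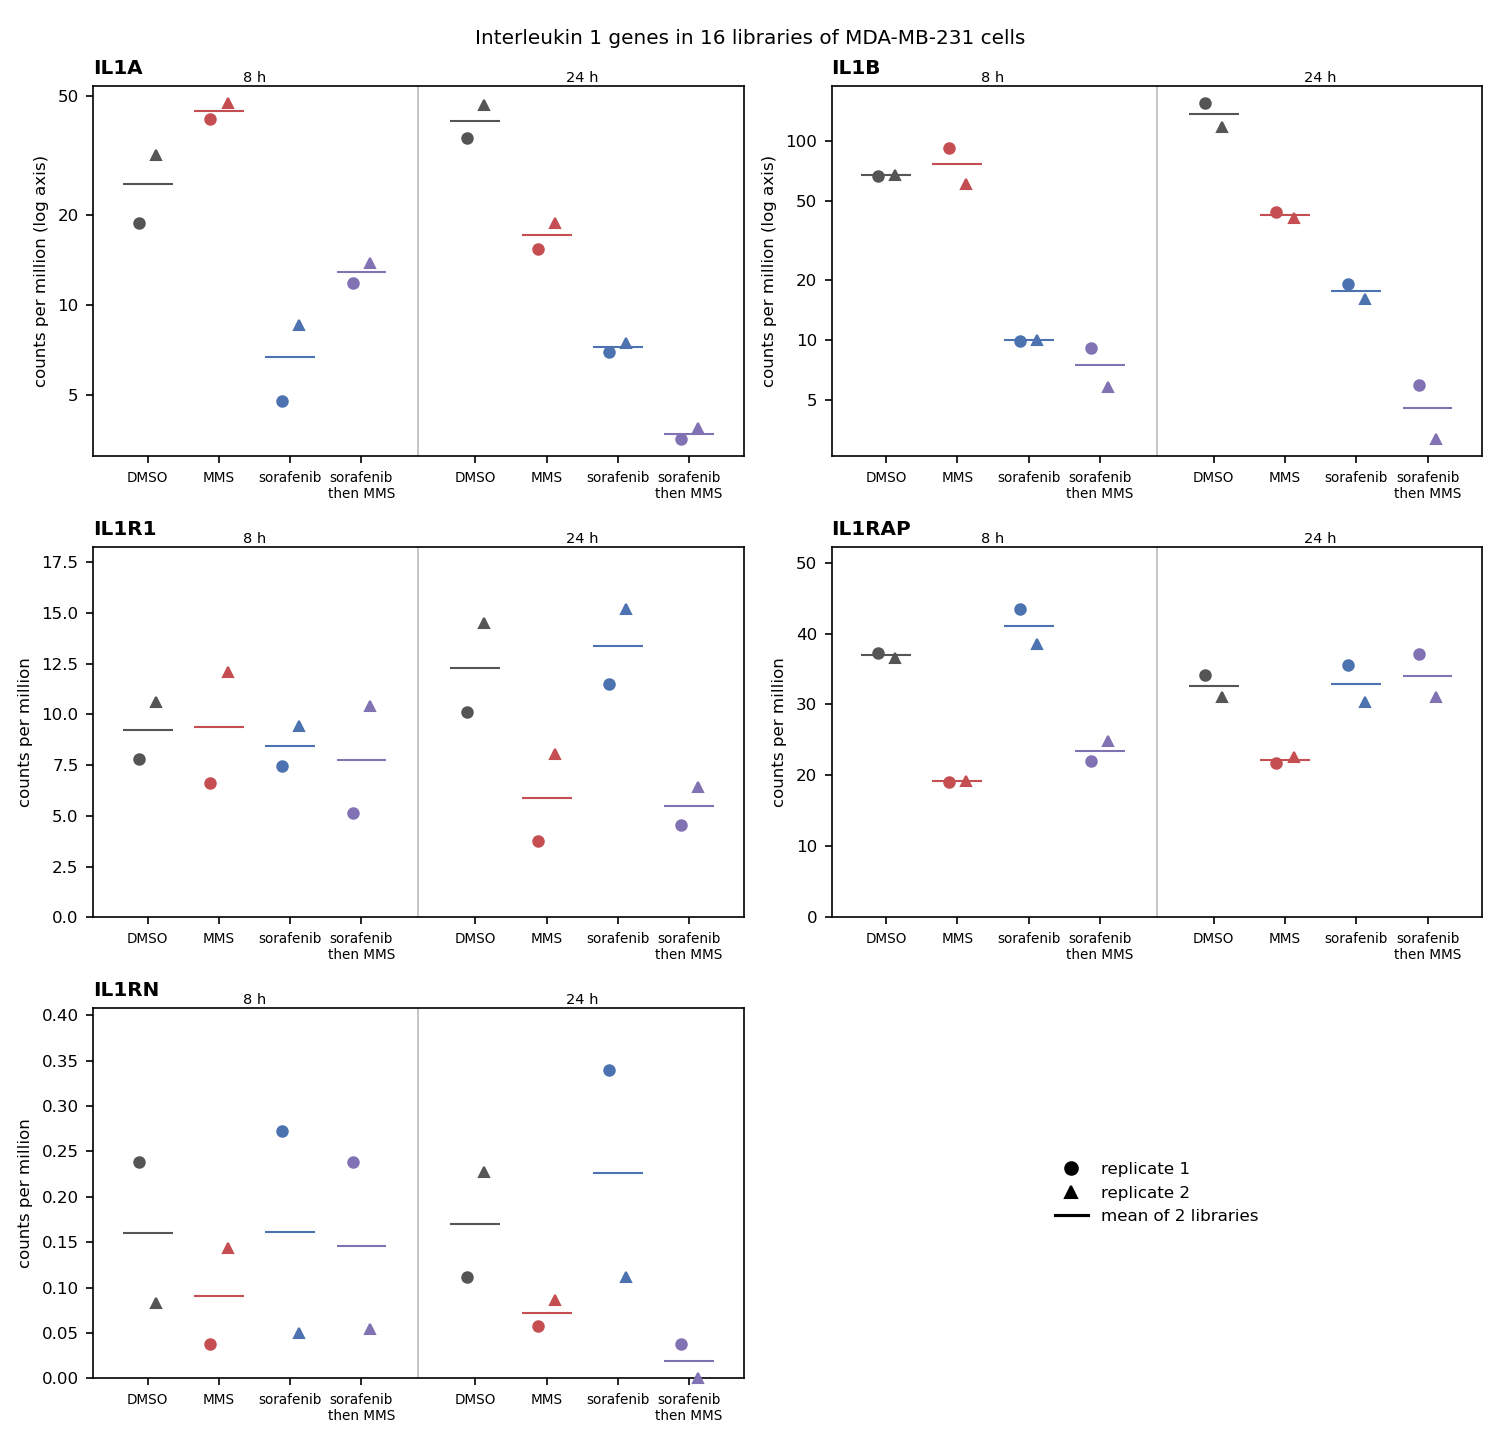
Level of each of the 5 genes in CPM, by treatment and time. Circles and triangles are the libraries of replicates 1 and 2, lines are means of 2 libraries, and the axes of IL1A and IL1B are logarithmic. In both agonist panels the 8 libraries that received sorafenib sit below the 8 that did not.

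Cells given sorafenib before MMS had lower levels of both agonists than cells given MMS alone. IL1A stood at 42 and 47.6 CPM in MMS at 8 h and at 11.9 and 13.9 CPM in the combination. The corresponding levels at 24 h were 15.4 and 18.9 CPM in MMS and 3.56 and 3.89 CPM in the combination. The log2 change of the combination against MMS was -1.84 ± 0.26 at 8 h (adjusted p = 0.00932) and -2.20 ± 0.28 at 24 h (adjusted p = 0.0133). For IL1B the fold was larger. It stood at 92.1 and 61 CPM in MMS and at 9.06 and 5.81 CPM in the combination at 8 h, and at 43.9 and 41 CPM against 5.91 and 3.15 CPM at 24 h. Its log2 change was -3.42 ± 0.29 at 8 h (adjusted p = 0.000361) and -3.21 ± 0.30 at 24 h (adjusted p = 0.00108).

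Against MMS, too, few genes of the whole table passed: 0.638% at 8 h and 0.108%, 15 genes, at 24 h (lower: 0.394% and 0.0932%), while 2 of 4 members passed at each time, both lower. With the replicate block 9.46% and 2.01% of all genes passed at 8 h and 24 h, and both agonists did. Without the block, the 2 agonists were thus among the 15 genes at 24 h. The 8 h call of IL1A was lost without MMS replicate 1 (adjusted p = 0.0538), MMS replicate 2 (0.0747) or combination replicate 1 (0.158). Its 24 h call was lost without MMS replicate 2 (0.0759), combination replicate 1 (0.189) or combination replicate 2 (0.103), and IL1B did not pass in a fit of only the compared libraries (0.0547).

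Over all 16 libraries the agonists separated fully by sorafenib. IL1A had its lowest, median and highest level at 3.56, 7.24 and 13.9 CPM in the 8 libraries with sorafenib and at 15.4, 34 and 47.6 CPM in the 8 without. For IL1B these levels were 3.15, 9.47 and 19.1 CPM with sorafenib and 41, 67.2 and 156 CPM without. The receptor chains overlapped: IL1R1 ranged from 4.55 to 15.2 CPM with sorafenib and from 3.77 to 14.5 CPM without, and IL1RAP from 22 to 43.5 CPM and from 19.1 to 37.3 CPM. The mean of the 4 differences made by sorafenib was a log2 change of -2.12 ± 0.14 for IL1A (adjusted p = 5.8e-06) and of -3.09 ± 0.14 for IL1B (adjusted p = 4.32e-07). For IL1RAP the mean was a log2 change of 0.26 ± 0.06 (adjusted p = 0.0225). Its 4 differences were 0.17 ± 0.12 and 0.01 ± 0.12 for sorafenib against DMSO at 8 h and 24 h, and 0.25 ± 0.12 and 0.62 ± 0.12 for the combination against MMS. None of these 4 passed by itself in this fit. IL1R1 had a mean of -0.10 ± 0.21 (adjusted p = 0.886, 95% interval -0.55 to 0.35). Thus 3 of 4 members passed where 6.46% of all genes did. IL1RAP did not pass without any one of 10 of the 16 libraries (adjusted p from 0.0502 to 0.0849): MMS replicates 1 and 2 at both times, DMSO replicates 1 and 2 at 8 h and replicate 2 at 24 h, sorafenib replicate 1 at both times, and combination replicate 1 at 24 h.

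With MMS alone IL1A rose at 8 h, and both agonists fell at 24 h. At 8 h IL1A was higher in both MMS libraries (42 and 47.6 CPM) than in both DMSO libraries (18.9 and 31.9 CPM), a log2 change of 0.85 ± 0.25 (adjusted p = 0.0249). IL1B overlapped between the groups, with a log2 change of 0.23 ± 0.25 (adjusted p = 0.567, 95% interval -0.32 to 0.77), and its MMS libraries lay on either side of the DMSO libraries. At 24 h both agonists fell, IL1A by a log2 change of -1.33 ± 0.26 (adjusted p = 0.00229) and IL1B by one of -1.75 ± 0.26 (adjusted p = 0.00052). The rise of IL1A at 8 h did not pass without DMSO replicate 1 (log2 change 0.53, adjusted p = 0.196), MMS replicate 1 (0.0593) or MMS replicate 2 (0.118), nor in a fit of only the compared libraries (adjusted p = 0.0523).

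The co-receptor IL1RAP fell with MMS at both times. It stood at 37.3 and 36.6 CPM in DMSO at 8 h and at 19.1 and 19.2 CPM in MMS. At 24 h the levels were 34.1 and 31.1 CPM in DMSO and 21.7 and 22.6 CPM in MMS. The groups did not overlap at either time, and the log2 change was -0.91 ± 0.12 at 8 h (adjusted p = 0.000174) and -0.61 ± 0.12 at 24 h (adjusted p = 0.00278). For IL1R1, the chain that binds the ligand, the log2 change was 0.06 ± 0.41 at 8 h (adjusted p = 0.943) and -1.10 ± 0.42 at 24 h (adjusted p = 0.064). Its libraries at 24 h stood at 10.1 and 14.5 CPM in DMSO and at 3.77 and 8.02 CPM in MMS, without overlap. The title start may mark the experiment, and was used as a replicate block. With this block the fall of IL1R1 at 24 h passed (adjusted p = 3.41e-05, where 48.2% of all genes passed). It also passed in DESeq2 (log2 change -1.11, adjusted p = 0.0254, where 32% of all genes passed). Leaving out any one of the 4 libraries compared gave log2 changes of IL1R1 from -1.70 to -0.66. The summed leukocyte markers were lower with MMS as well (2.84 to 5.15 CPM at 8 h and 2.72 to 3.54 CPM at 24 h). Over all libraries LYZ was at most 0.291 CPM, ITGAM at most 0.112 CPM, CSF1R at most 4.49 CPM and CD14 at most 14 CPM. The part of these markers in these results was not tested. MMS changed many genes, 26.5% of those tested at 8 h and 31.4% at 24 h, and 2 and 3 of 4 members passed.

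**Figure D2:**
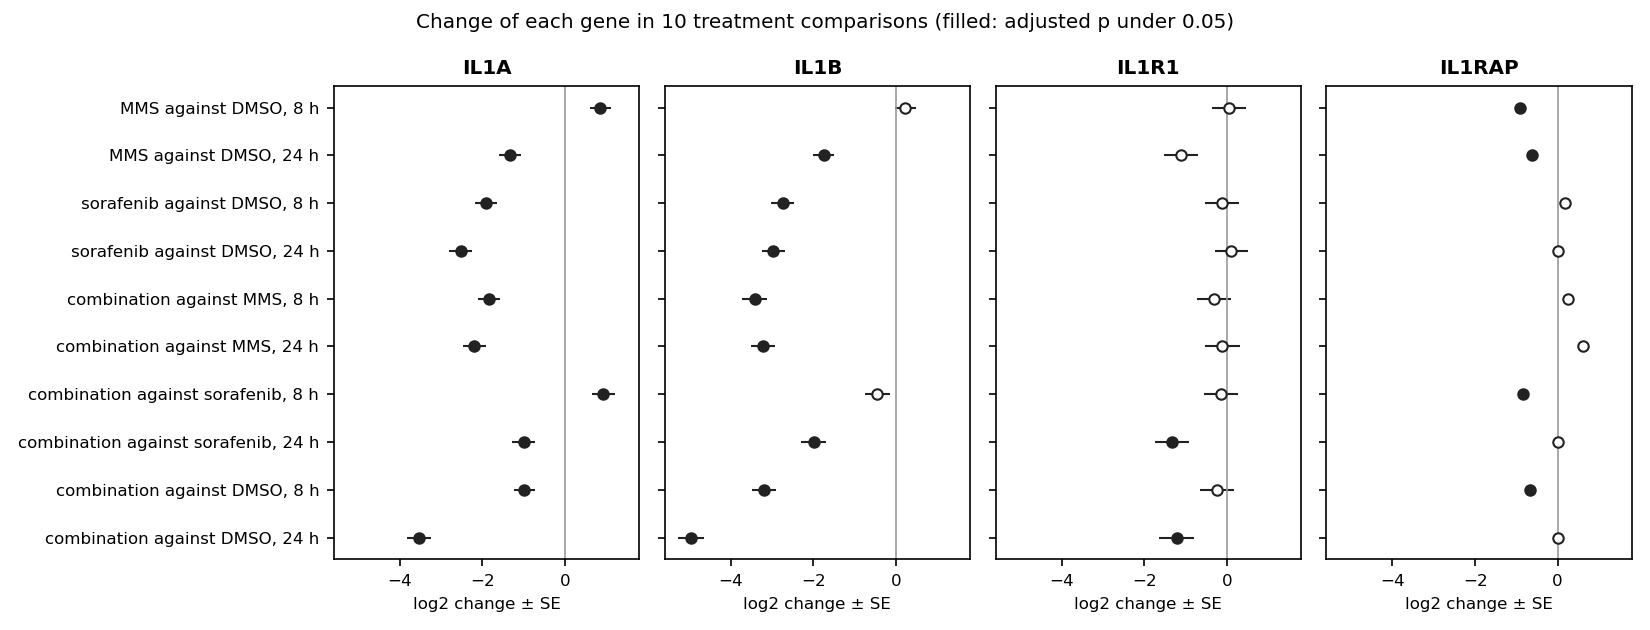
Log2 change ± SE of each tested gene in 10 treatment comparisons, with filled points where the adjusted p was under 0.05. IL1A and IL1B lie left of 0 in the 4 comparisons that add sorafenib, where IL1R1 and IL1RAP lie near 0 except for IL1RAP in the combination against MMS at 24 h (0.62 ± 0.12).

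The difference between the MMS effects at 24 h and 8 h was tested directly. It was -2.19 ± 0.36 for IL1A (adjusted p = 0.00357) and -1.97 ± 0.36 for IL1B (adjusted p = 0.0068) on the log2 scale. It was -1.16 ± 0.58 for IL1R1 (adjusted p = 0.255, and 0.0016 with the replicate block, where 25.5% of all genes passed) and 0.30 ± 0.17 for IL1RAP (adjusted p = 0.324). So 2 of 4 members passed, against 9.09% of all genes tested. The DMSO libraries enter this difference, and they moved as well: between 8 h and 24 h in DMSO, the log2 change was 0.68 ± 0.25 for IL1A (adjusted p = 0.212) and 1.00 ± 0.25 for IL1B (adjusted p = 0.0853). Of the 4 members 0 passed there, as 0.688% of all genes did, and 1 passed in DESeq2 (IL1B, adjusted p = 0.00791, beside 3.51% of all genes), while with the replicate block both agonists passed (adjusted p = 0.00276 and 0.000318, beside 13.6%). IL1R1 had a log2 change of 0.39 ± 0.41 and IL1RAP one of -0.21 ± 0.12 over the same hours.

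The combination differed from sorafenib alone in a way that depended on the gene. Its cells had MMS and also 12 h more of sorafenib, which cannot be told apart here. Against sorafenib alone at 8 h, IL1A was higher in the combination (11.9 and 13.9 against 4.78 and 8.63 CPM, log2 change 0.93 ± 0.27, adjusted p = 0.0263) and IL1RAP was lower (22 and 24.9 against 43.5 and 38.5 CPM, log2 change -0.83 ± 0.12, adjusted p = 0.000383). IL1B had a log2 change of -0.45 ± 0.30 (adjusted p = 0.327). At 24 h the combination was below sorafenib alone for IL1A (log2 change -1 ± 0.29, adjusted p = 0.0167), for IL1B (-1.99 ± 0.30, adjusted p = 0.000417) and for IL1R1 (-1.32 ± 0.42, adjusted p = 0.0268). IL1RAP did not differ detectably there (log2 change 0.01 ± 0.12, 95% interval -0.26 to 0.27, adjusted p = 0.981). The counts of members that passed were 2 of 4 at 8 h and 3 of 4 at 24 h, where 24.5% and 36.7% of all genes passed. At 8 h the rise of IL1A did not pass without sorafenib replicate 1 (log2 change 0.57, adjusted p = 0.209), combination replicate 1 (adjusted p = 0.056), combination replicate 2 (adjusted p = 0.125) or with only the compared libraries (adjusted p = 0.0793), and it reached 1.40 without sorafenib replicate 2. At 24 h neither IL1A (adjusted p from 0.0581 to 0.0841) nor IL1R1 (adjusted p from 0.0512 to 0.155) passed when any one of the 4 libraries compared was left out, and IL1R1 did not pass without a filter on low counts (adjusted p = 0.0546).

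The combination at 24 h held the lowest agonist levels of the series. Against DMSO of the same time, IL1B was 31.1-fold lower (log2 change -4.96 ± 0.31, adjusted p = 2.09e-06) and IL1A 11.5-fold lower (-3.53 ± 0.29, adjusted p = 9.05e-06). IL1R1 was lower by a log2 change of -1.22 ± 0.42 (adjusted p = 0.0423), and IL1RAP had 0.01 ± 0.12 (adjusted p = 0.948). At 8 h IL1B was lower by -3.19 ± 0.29 (adjusted p = 2.11e-05), IL1A by -0.98 ± 0.26 (adjusted p = 0.0155) and IL1RAP by -0.67 ± 0.12 (adjusted p = 0.00174). That made 3 of 4 members at each time, all lower, where 24.3% of all genes passed at 8 h and 33.3% at 24 h (lower: 11.8% and 17.1%). IL1A at 8 h did not pass without DMSO replicate 2 (log2 change -0.58, adjusted p = 0.177) or combination replicate 1 (adjusted p = 0.0979). IL1R1 at 24 h did not pass when any one of the 4 libraries was left out (adjusted p from 0.0518 to 0.212), without a filter (0.0833) or with library totals in place of TMM factors (0.054).

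The effects of the 2 agents could also be combined on the log2 scale, and the interaction asks whether they add up. Since the combination had 12 h more of sorafenib than sorafenib alone, it cannot separate additivity from that longer exposure. At 8 h it was 0.07 ± 0.37 for IL1A, -0.68 ± 0.39 for IL1B, -0.19 ± 0.58 for IL1R1 and 0.08 ± 0.17 for IL1RAP, all with an adjusted p of 1. At 24 h it was 0.33 ± 0.38 for IL1A, -0.25 ± 0.39 for IL1B and -0.22 ± 0.58 for IL1R1. IL1RAP stood apart at 24 h with 0.61 ± 0.17, an unadjusted p of 0.0037 and an adjusted p of 1 (0.246 with the replicate block). No gene of the table passed in edgeR's test at either time (0%), with 502 genes at 8 h and 301 at 24 h under an unadjusted p of 0.05, 9 and 6 genes (0.0645% and 0.043%) passing with the replicate block and 1 at each time (0.00717%) with DESeq2.

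The value behind the IL1RAP interaction can be read from its libraries. At 24 h its level was 34.1 and 31.1 CPM in DMSO, 35.5 and 30.4 CPM in sorafenib, 37.1 and 31 CPM in the combination and 21.7 and 22.6 CPM in MMS. MMS alone was thus the one low group at that time, whereas at 8 h the combination (22 and 24.9 CPM) was low like MMS (19.1 and 19.2 CPM). Against MMS at 24 h the combination was higher by a log2 change of 0.62 ± 0.12, which did not pass (adjusted p = 0.107), and which passed with the replicate block (adjusted p = 0.00178, beside 2.01% of all genes) and in DESeq2 (adjusted p = 0.00663, beside 0.617%). The corresponding value at 8 h was 0.25 ± 0.12 (adjusted p = 0.418). Comparisons here share libraries (MMS with those against MMS, DMSO with those against DMSO), so their values are not independent of each other.

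Ordered by mean level, IL1A was highest in MMS at 8 h (44.8 ± 3.99 CPM, SD, n = 2) and in DMSO at 24 h (41.5 ± 7.52), whose libraries overlapped. DMSO at 8 h, MMS at 24 h (17.1 ± 2.47) and the combination at 8 h (12.9 ± 1.42) followed, each apart from the next. Sorafenib at 24 h and at 8 h overlapped, and the combination at 24 h was lowest (3.73 ± 0.231). For IL1B, DMSO at 24 h was highest (137 ± 27.0 CPM), MMS and DMSO at 8 h overlapped, and the last of the order, the combination at 8 h (7.43 ± 2.30) and at 24 h (4.53 ± 1.96), also overlapped. IL1RAP was highest in sorafenib at 8 h (41.0 ± 3.53 CPM) and lowest in MMS at 8 h (19.2 ± 0.0214), with DMSO at 8 h, the combination, sorafenib and DMSO at 24 h overlapping in sequence. IL1R1 ran from 13.3 ± 2.66 CPM in sorafenib at 24 h to 5.49 ± 1.33 CPM in the combination at 24 h, and every neighbour in its order overlapped.

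IL1RN, the natural antagonist, was barely detected. It had 42 reads over the 16 libraries, against 21256 reads of IL1A and IL1B together. Per library it had 0 to 8 reads, or 0 to 0.34 CPM, and 0 reads in combination replicate 2 at 24 h, where a count of 0 allows up to 3 reads. Reads were 19 in the 8 libraries without sorafenib and 23 in the 8 with it, and these 2 sets of libraries overlapped in CPM. The gene was removed by the filter on low counts and was not tested, and differences between treatments were not detectable at this depth. The agonist reads fell over the same groups, from 6351 in DMSO to 1036 in sorafenib and 411 in the combination at 24 h, while IL1RN gave 6, 10 and 1 reads there.

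The agonists did not move in equal measure. The log2 ratio of IL1B to IL1A counts, in which gene length and library size cancel between groups, was 1.82 and 1.09 in DMSO at 8 h and 2.11 and 1.34 at 24 h. It was 1.13 and 0.36 in MMS at 8 h, 1.04 and 0.21 in sorafenib at 8 h, and -0.39 and -1.26 in the combination at 8 h, the 2 lowest of that time. At 24 h it was 1.51 and 1.12 in MMS, 1.45 and 1.11 in sorafenib and 0.73 and -0.30 in the combination. In every group replicate 1 had the higher ratio, and both combination groups lay below DMSO of their time. The ratios are given as a description, without a test.

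**Figure D3:**
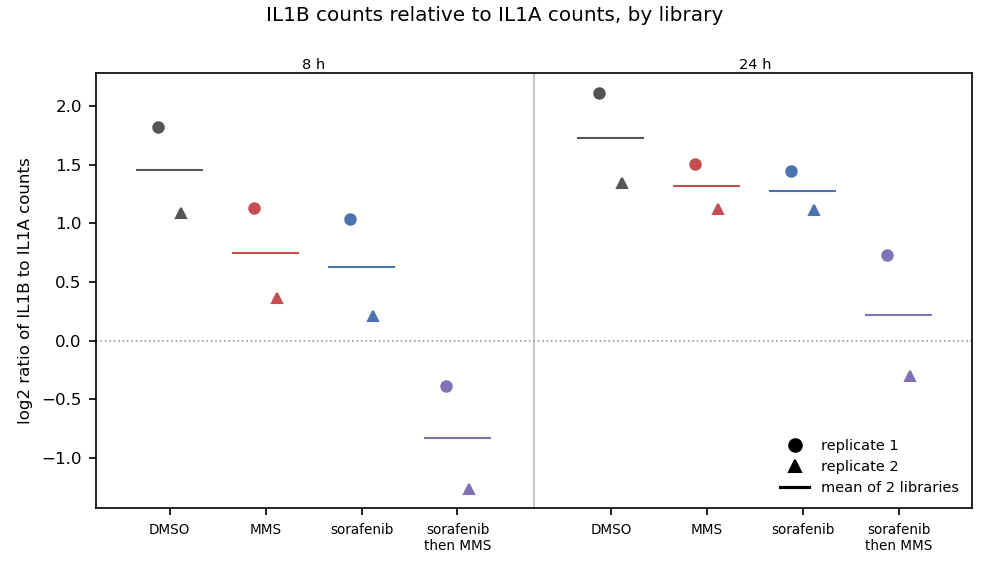
Log2 ratio of IL1B to IL1A counts in each library, by treatment and time, with the mean of 2 libraries as a line. The combination at 8 h lies below 0 in both libraries (-0.39 and -1.26), and replicate 1 is above replicate 2 in all 8 groups.

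Sample titles have 2 different starts, each found in every group, and among samples of the same start the sorafenib differences were alike. For IL1B, sorafenib against DMSO at 8 h gave -2.76 in both, and at 24 h it gave -3.03 and -2.87 on the log2 scale. The combination against MMS gave -3.35 and -3.39 at 8 h and -2.89 and -3.70 at 24 h. For IL1A the same 4 differences lay between -2.65 and -1.77 in both. MMS against DMSO at 8 h was less even, with 1.15 and 0.58 for IL1A and 0.47 and -0.15 for IL1B. Replicate 2 had the higher level in all 8 groups for both IL1A and IL1R1.

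Genes with the pattern most like each member were ranked by Pearson's r across the 8 group means, among genes with a mean count of at least 50. These are descriptions over 8 points that share libraries. For IL1A they were PHLDA1 (r = 0.976), ZFP36L1 (0.973) and IER3 (0.969). For IL1B they were the kinase A inhibitor gene PKIA (0.989), the pyrophosphate transporter gene ANKH (0.967) and IER3 (0.933). For IL1R1 they were SMAD2 (0.992), CREB3L2 (0.986) and FBXL20 (0.985), and for IL1RAP SLCO1B3 (0.979), KIAA1468 (0.976) and ATG7 (0.974). Over the 16 single libraries the 3 genes of IL1A stayed the leading 3, whereas IL1B kept 1 of them and IL1R1 and IL1RAP kept 0. Between members, r over the group means was 0.91 for IL1A with IL1B, 0.39 for IL1A with IL1R1, -0.42 for IL1A with IL1RAP and 0.31 for IL1R1 with IL1RAP.

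Among the other cytokines of the family, IL18, which caspase-1 also matures, was the only one of 8 found in the files that passed the filter. With sorafenib its level went the opposite way to the agonists: 21.7 to 64.9 CPM (median 33.2) in the 8 libraries without sorafenib and 37.1 to 112 CPM (median 66.4) in the 8 with it. Between 8 h and 24 h in DMSO it rose, as the agonists did, by 0.62 and 0.50 on the log2 scale within the 2 title starts. These ranges overlapped, and within each title start and time the sorafenib library was the higher one. The mean of the 4 sorafenib differences was 0.89 ± 0.22 (adjusted p = 0.0396, and 2.11e-10 with the replicate block, where 17.4% of all genes passed), which did not pass without any one of 13 of the 16 libraries. In the single comparisons IL18 did not pass, at 1.05 ± 0.45 for sorafenib against DMSO at 8 h (adjusted p = 0.635), and with the replicate block it did (adjusted p = 4.16e-06). Of 9 other receptors and binding proteins of the family 5 were tested, and none passed under sorafenib against DMSO or the combination against MMS. Over all genes 0.108% to 0.796% passed there, so that a count of 0 is near the background. With the replicate block 1 was lower with sorafenib at 24 h, where 3.77% of all genes were. For the mean of the 4 differences 2 were lower with the block, where 8.25% of all genes were.

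Genes known to respond to interleukin 1 were in part lower with sorafenib as well, and a link to the agonist levels was not tested. Of 28 such genes 25 were tested. With sorafenib 2 were lower at 8 h and 5 at 24 h, and in the combination against MMS 5 at 8 h and 1 at 24 h. Over all genes 0.287%, 0.545%, 0.394% and 0.0932% were lower. None of the list was higher, where 0.129%, 0.251%, 0.244% and 0.0143% of all genes were. Leaving out any one library gave 1 to 2, 2 to 3, 1 to 7 and 1 lower. For the combination against MMS at 8 h there were 7 lower and 2 higher without combination replicate 2, and 1 lower without MMS replicate 2. With the replicate block the counts were 7, 9, 12 and 9 lower and 0, 4, 4 and 2 higher, where 4.98%, 7.1%, 9.46% and 2.01% of all genes passed. The list medians were -0.16, -0.14, -0.55 and -0.28 on the log2 scale, where those over all genes were at most 0.01 from 0. For the mean of the 4 differences, 11 were lower and 4 higher, where 3.28% of all genes were lower and 3.18% higher. Leaving out any one library gave 11 to 12 lower and 2 to 4 higher, with 2 higher without any one of 8 libraries: DMSO or MMS replicates 1 and 2 at 8 h, sorafenib replicate 1 at either time or combination replicate 1 at either time.

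The neutrophil growth factor CSF3 passed in all 4 comparisons, and when any one library was left out. Its level was 5.55 to 20.8 CPM in the 8 libraries with sorafenib and 40.6 to 82.7 CPM in the 8 without, so the groups did not overlap. Its log2 change was -2.75 ± 0.18 (adjusted p = 2.17e-05) at 8 h and -3.03 ± 0.17 at 24 h for sorafenib against DMSO, and -1.88 ± 0.16 and -2.14 ± 0.17 (adjusted p = 9.18e-05) for the combination against MMS. The gp130 cytokine IL11 was lower by -1.35 ± 0.21 (adjusted p = 0.0243) and -1.52 ± 0.21 (adjusted p = 0.00606) with sorafenib at 8 h and 24 h. It did not pass at 8 h without DMSO replicate 1 or either sorafenib library (adjusted p from 0.084 to 0.186), nor at 24 h without sorafenib replicate 1 or DMSO replicate 2 (0.0631 to 0.132). The stromelysin gene MMP3 was lower in the combination against MMS at 8 h by -3.18 ± 0.44 (adjusted p = 0.0109), and did not pass without combination replicate 1 or MMS replicate 2 (0.0804 to 0.158).

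MMS changed the responsive genes in both directions at 8 h, when 14.5% of all genes were higher and 12% lower. Then 8 of the 25 were higher, among them the neutrophil chemokines CXCL3 (2.86 ± 0.27, adjusted p = 2.51e-05) and CXCL2 (2.35 ± 0.23), close paralogs that may share reads. And 7 were lower, among them the NF-kB inhibitor gene NFKBIA (-1.55 ± 0.09, adjusted p = 6.9e-07) and BIRC3 (-1.70 ± 0.13). The list median was 0.29. Without DMSO replicate 1 or MMS replicate 2, 5 were higher. At 24 h 1 was higher, MMP3 (3.53 ± 0.44, adjusted p = 0.00028), and 10 were lower, with a list median of -0.53, where 15.1% of all genes were higher and 16.2% lower. Fewer were lower when any one of the libraries compared was left out. With the replicate block these counts were 13 and 8 at 8 h and 2 and 18 at 24 h, where 43.3% and 48.2% of all genes passed. In the combination against DMSO at 24 h, 16 of 25 were lower and none higher, where 17.1% of all genes were lower and 16.2% higher. The list median was -0.90 beside 0.01 for all genes. Leaving out any one library gave 10 to 15 lower, with 10 without combination replicate 2, and 1 was higher without combination replicate 1.

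Without the replicate block, the machinery on either side of the receptor gave no calls with sorafenib in the 4 comparisons. Of 28 signalling genes, all tested, and of 16 processing genes tested out of 19 found, 0 passed against DMSO or MMS at either time, where 0.108% to 0.796% of all genes did, so that a count of 0 is near the background. Without combination replicate 2, 2 signalling genes were lower in the combination against MMS at 8 h. With the replicate block 2 and 4 of the 16 processing genes were lower with sorafenib at 8 h and 24 h. In the combination against MMS 0 and 1 were. Of the 28 signalling genes 0, 2, 3 and 0 were lower in the same order. Over all genes 2.87%, 3.77%, 5.33% and 1.23% were lower there. At most 1 gene of either list was higher, a signalling gene in the combination against MMS at 8 h, where 4.13% of all genes were. With MMS the 2 lists together held calls at a share near that of all genes (26.5% at 8 h and 31.4% at 24 h). At 8 h 4 signalling genes were higher, led by the scaffold SQSTM1 (1.23 ± 0.11, adjusted p = 7.43e-06) and the ubiquitin ligase TRAF6 (0.84 ± 0.14), and 4 were lower, among them the kinase MAP2K3 (-0.64 ± 0.09). At 24 h 3 were higher, among them the IKK subunit IKBKG (1.04 ± 0.18), and 6 lower, among them the IKK kinase IKBKB (-0.69 ± 0.09). Without DMSO replicate 1 or MMS replicate 2 the higher calls at 8 h were 2, and without MMS replicate 1 the calls at 24 h were 1 and 3. Of the processing genes, 3 were lower at 8 h, and 0 to 2 without any one library (0 without MMS replicate 1, 1 without either DMSO library). At 24 h 1 was higher, the inflammatory caspase CASP4 (0.88 ± 0.20), which did not pass without MMS replicate 1 or DMSO replicate 2 (adjusted p from 0.0689 to 0.0707). Without DMSO replicate 1, 3 were higher. At the same time 4 were lower, among them the calpain CAPN2 (-0.86 ± 0.09) and the DNA sensor AIM2 (-1.30 ± 0.27).

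**Figure D4:**
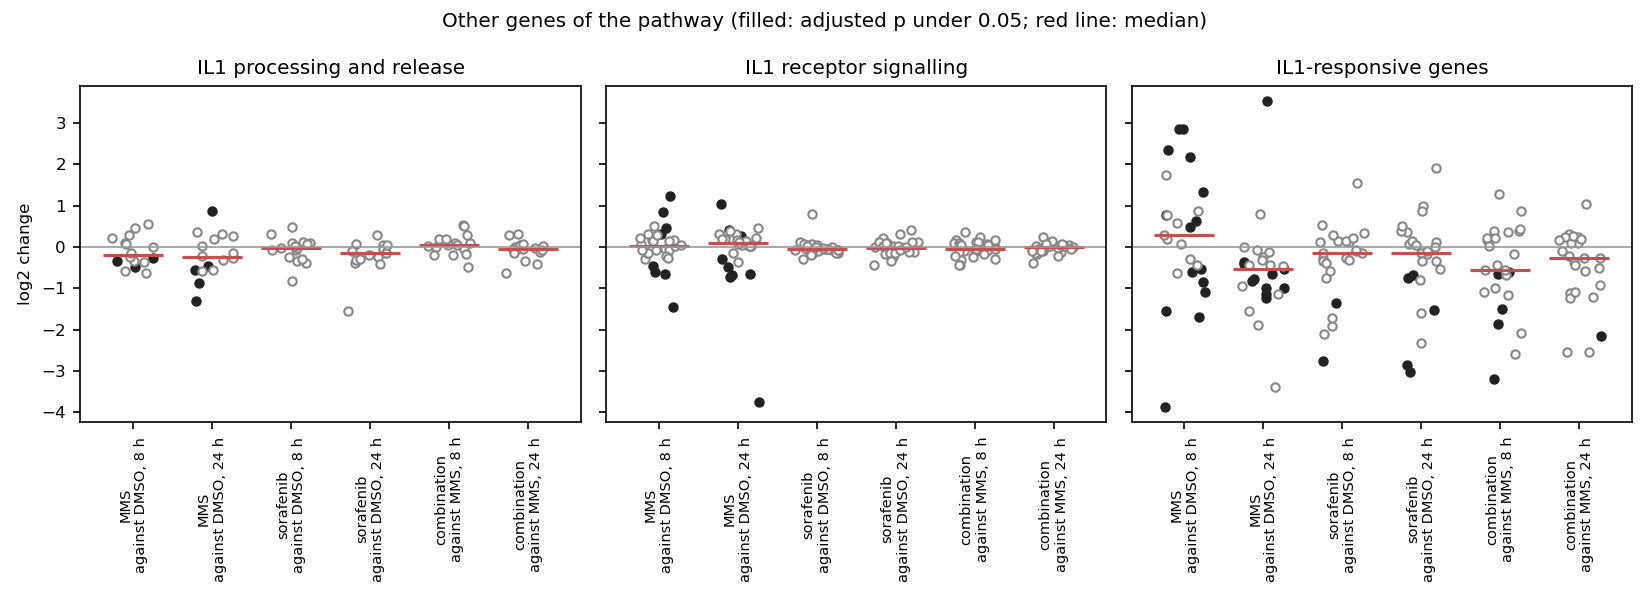
Log2 change of the tested genes of 3 lists in 6 comparisons, with filled points where the adjusted p was under 0.05 and the list median as a red line. The signalling and processing genes have no filled point in the 4 comparisons that add sorafenib, and the responsive genes have 2, 5, 5 and 1 filled points there, all below 0.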

How the data were processed

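Total RNA was sequenced from TruSeq libraries. The deposited values are raw counts per gene, which the authors made, per the submitters' processing notes, with CASAVA 1.8.2, TopHat2 2.0.8b, HTSeq and the genome build hg19. Gene annotation, strand setting and counting mode are not given in the sources used here, so reads that overlapping genes or close copies share cannot be followed. The 5 counter rows were left out of totals and tests. Reads outside genes made up 6.88 to 7.94% per library, ambiguous ones 1.03 to 1.18% and multiply aligned ones 29.5 to 31.5%.

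Counts of all 16 libraries were fitted together with edgeR 4.0.16 in R 4.3.3, with TMM factors (0.954 to 1.06), the filterByExpr filter (13948 genes and 4 of 5 members kept), 1 mean per group, quasi-likelihood tests with 8 residual degrees of freedom, and Benjamini-Hochberg adjustment over all genes tested in each of 15 comparisons. The fit was tested on simulated data. Each group has only 2 libraries, so the spread behind the p-values was pooled over all groups and moderated across genes. It covers only the variation between replicate libraries of this series. Replicate numbers come from the 2 ways in which titles begin, which may mark the experiments. Deviations from group means correlated between same-numbered libraries in all 28 pairs of groups (0.491 to 0.678, median 0.614), so a fit with title start as replicate block is given where it changed a call.

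Members and lists were chosen with earlier results of these data known. The text names the members, up to 4 genes per list and treatment comparison with the smallest p among those that passed at a mean of 50 or more counts, plus the 3 genes most like each member. Some genes under this rule are left out. Ratios had 0.5 counts added. Alternatives were other size factors, other filters, the block, only the compared libraries, DESeq2 1.42.0 and each library left out in turn. Promoter windows came from RefSeq (GRCh38.p14).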

Additional observations from a re-analysis of the deposited data

Results flagged for a closer look

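The 2 agonists responded to MMS differently at the 2 times, by a test of the difference itself. For IL1A the MMS effect at 24 h minus that at 8 h was -2.19 ± 0.36 on the log2 scale (n = 2 libraries per group, edgeR adjusted p = 0.00357), with effects of 0.85 at 8 h and -1.33 at 24 h. For IL1B it was -1.97 ± 0.36 (adjusted p = 0.0068), with effects of 0.23 and -1.75. Leaving out any one of the 8 libraries gave -2.59 to -1.83 for IL1A and -2.20 to -1.64 for IL1B, past the threshold each time. Outlying samples were not looked for, since groups of 2 do not allow it.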

How the results depend on the processing

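In the fit without the replicate block, with 2 libraries per group, calls were few under sorafenib and sensitive to single libraries. The fits with a library left out had no block either. Leaving out one library gave 336 values for members: 262 kept direction and side of the threshold, 39 no longer passed, 1 newly passed and 34 changed sign, all of the latter without a call. Of 416 values under the other settings, 399 were the same, 7 no longer passed, 8 newly passed and 2 changed sign, and the cause was not tested.

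Members that passed, with one library left out, numbered 1 to 2 (of 2) for MMS against DMSO at 8 h, 0 to 2 for sorafenib against DMSO at 8 h, 1 to 2 for the combination against MMS at 8 h and at 24 h, 1 to 2 for the combination against sorafenib at 8 h, and 1 (of 3) at 24 h. With only the compared libraries they numbered 1 for MMS and for sorafenib against DMSO at 8 h, for the combination against MMS at 24 h and against sorafenib at 8 h. For DMSO at 24 h against 8 h, 2 passed with the replicate block and 1 with DESeq2. Of the 3 most similar genes, 1 was shared over 16 libraries for IL1B, 0 for IL1R1 and 0 for IL1RAP.

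The pairing by title start multiplied the count of all genes that passed by 1.48 to 19.8. DESeq2 gave 0.995 to 5.73 times the count, only the compared libraries 0.0104 to 0.879 times, and one library left out 0 to 7.15 times. Beside the calls named in the text, the replicate block changed no other call of a member. Size factors and filters stayed within 1.5 times, except a mean count of at least 50, which gave up to 1.57 times.

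Signs changed only where nothing passed. IL1RAP in the combination against sorafenib at 24 h was -0.004 with RLE factors and -0.004 with DESeq2, and -0.11 to 0.16 with one library left out. The ranges of other such log2 changes were, for IL1R1, -0.45 to 0.43 (MMS, 8 h), -0.29 to 0.10 and -0.13 to 0.38 (sorafenib, 8 h and 24 h), -0.92 to 0.19 and -0.53 to 0.51 (combination against MMS), -0.75 to 0.27 (against sorafenib, 8 h), -0.86 to 0.15 (against DMSO, 8 h), -0.81 to 0.31 and -0.64 to 0.40 (interactions) and -0.26 to 0.051 (mean of the sorafenib differences). For IL1RAP they were -0.13 to 0.13 (sorafenib, 24 h), -0.10 to 0.16 (combination against DMSO, 24 h) and -0.023 to 0.18 (interaction, 8 h). For IL1B they were -0.11 to 0.47 (MMS, 8 h) and -0.79 to 0.12 (interaction, 24 h), and for IL1A -0.33 to 0.55 (interaction, 8 h). Depth limits IL1RN, with 0 to 8 reads per library.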

Other observations

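Some other receptors of the interleukin 1 family gave few reads. Over the 16 libraries IL1RL2 had 561 and SIGIRR 483, whereas IL1RAPL1 had 2804. For IL1RL2, the interleukin 36 receptor, the log2 change was 2.23 ± 0.70 for MMS against DMSO at 8 h (edgeR adjusted p = 0.0334), on a mean of 40.8 counts over the 4 libraries. It did not pass without DMSO replicate 1 or MMS replicate 2 (adjusted p from 0.181 to 0.184). In the combination against sorafenib at 8 h its change was 2.13 ± 0.69 (adjusted p = 0.0419), which did not pass when any one of the 4 libraries was left out (adjusted p from 0.0516 to 0.252). SIGIRR, an inhibitory receptor of the family, was lower in the combination against DMSO at 24 h, by a log2 change of -1.91 ± 0.63 (adjusted p = 0.0355) on a mean of 38.5 counts. That call was lost without either combination library or DMSO replicate 2 (adjusted p from 0.0557 to 0.288). These genes were named after their values were seen.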
